A study of Homo sapiens with 54 samples.

Results

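The RNA levels of 9 genes for ALS-linked and stress granule RNA-binding proteins were followed in HEK293T, a line derived from human embryonic kidney, after delivery of the RNA-guided nuclease RfxCas13d. The 9 genes are TARDBP, TIA1, TIAL1, ATXN2, MATR3, EWSR1, TAF15, G3BP1 and G3BP2. They were chosen by name, with earlier results of these data known, from the 38137 genes listed in the deposited count table. All 9 passed the filter on low counts that left 15378 genes for testing. The lowest estimated count of any member in any library was 257, for TIA1.

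Poly(A)-selected RNA was sequenced from 54 libraries, in 18 groups of 3 independent biological replicates. The N2V8_S13 libraries were grouped by their titles, since the treatment label of all 3 reads RfxCas13d-N2V87, so every N2V8_S13 value rests on the titles being right. Cells were transiently transfected with plasmids for wild-type RfxCas13d (WT) or for either of its high-fidelity variants, RfxCas13d-N2V7 (N2V7) and RfxCas13d-N2V8 (N2V8), each with 1 of 5 crRNAs. The crRNAs were a non-targeting guide (NTG), crRNA 13 against C9ORF72 (S13) and 3 additional guides (S3, S4 and S7) for which the labels name no target. The study numbers its guides against C9ORF72, crRNA 13 among them, and S3, S4 and S7 may be others of that series. The set was completed by untransfected cells (UT) and by 2 antisense oligonucleotides against C9ORF72, ASO2 and ASO4. The genotype label is wild-type in all 18 groups, and harvest was 48 h after transfection by the labels, whereas the study's methods give a later time. The effector was driven by the CAG promoter and the crRNA by the U6 promoter, and transient delivery can leave untransfected cells in the dish, so a library may average cells with and without the effector.

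RNA-binding proteins of this kind bind pre-mRNA and mRNA and govern splicing, stability, transport and translation. On translational arrest, G3BP1, G3BP2, TIA1, TIAL1 and ATXN2 gather untranslated mRNA in cytoplasmic condensates called stress granules. TDP-43, the product of TARDBP, MATR3, EWSR1 and TAF15 are mainly nuclear, and mutation, mislocalisation or aggregation of several of these proteins has been linked to ALS, a disease of motor neurons, and to frontotemporal dementia (FTD). Expansion of a repeat in C9ORF72, the gene addressed here, is a common inherited cause of both disorders.

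Library totals ran from 9546826 to 15099153 estimated counts. Levels are given in CPM, counts relative to library size, after TMM scaling, which centres the bulk of genes between libraries, and differences are log2 fold changes ± SE from edgeR's quasi-likelihood fit. A gene was called when its log2 fold change was beyond 0.322 in either direction and its adjusted p was below 0.05. Libraries of 2 compared groups often did not overlap over all genes tested. Against NTG that share was 39.2% in WT_S13, 39% in N2V7_S13 and 23.8% in N2V8_S13. It was 19.9% in WT_S3, 20.5% in WT_S4, 44% in WT_S7 and 41.3% in N2V7_S7. Against UT it was 44.3% in N2V7_NTG, 51.2% in N2V8_NTG and 40.6% in ASO2. Library 2 of N2V7_S4 stood apart from the others, with residuals whose SD was 0.641 (log2), where no other library exceeded 0.469, and its group held 95.6% of the squared weight of the 1 factor of unwanted variation in the fit. It was the highest of all libraries for TARDBP, ATXN2, MATR3 and TAF15, so the N2V7_S4 values printed for these 4 genes are given with and without it. Ribosomal RNA took 4.17% to 4.42% of counts in N2V7_S13 and 3.98% to 4.96% in N2V8_S13, against 1.76% to 3.07% in N2V7_NTG and 1.81% to 3.52% in N2V8_NTG. Whether these shares bear on the values below was not tested. All 7 markers of HEK293T cells reached a median of at least 1 CPM, as did 6 of 12 neuroblastoma markers (HAND1, GATA2, GATA3 and ISL1 above 10 CPM, HAND2 and MYCN below) and 3 of 15 markers of other lineages. The summed level of the neuroblastoma markers ran from 109.1 to 199 CPM over the libraries, whereas PHOX2A, DBH and TH, which mark that cell type, had medians of 0. C9orf72 itself fell in ASO4 cells to 11.0 ± 0.770 CPM from 29.0 ± 1.31 CPM in UT cells (log2 −1.40 ± 0.10, adjusted p = 2.17e-16). It was not called with S13, at log2 −0.15 in WT, 0.07 in N2V7 and −0.06 in N2V8, nor in any other comparison of an agent with its control. Counts are per gene, so transcript variants of C9orf72 were not separated.

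Promoters are shown for TIA1, MATR3 and EWSR1, which were each called against untransfected cells with both variants, and for TIAL1, the paralog of TIA1. Each window spans 250 bases before to 50 bases after an annotated start in RefSeq (GRCh38.p14), written 5′ to 3′ on the strand of the gene. Capitals mark matches, on either strand, to 7 short motifs that were searched: the CCAAT box (CCAAT), the GC box (GGGCGG), an ETS core (CCGGAAG), a YY1 core (AAGATGG), part of a cyclic AMP response element (TGACG), an E-box (CACGTG) and a TATA box (TATAAA).
TIA1 upstream start, chr2:70248744-70249043, minus strand: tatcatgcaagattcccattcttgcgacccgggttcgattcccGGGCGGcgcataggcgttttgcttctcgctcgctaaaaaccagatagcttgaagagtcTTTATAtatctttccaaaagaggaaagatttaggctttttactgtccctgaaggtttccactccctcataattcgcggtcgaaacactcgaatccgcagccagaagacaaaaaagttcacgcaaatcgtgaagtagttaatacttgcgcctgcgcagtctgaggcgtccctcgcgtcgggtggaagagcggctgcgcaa
TIA1 downstream start, chr2:70248579-70248878, minus strand: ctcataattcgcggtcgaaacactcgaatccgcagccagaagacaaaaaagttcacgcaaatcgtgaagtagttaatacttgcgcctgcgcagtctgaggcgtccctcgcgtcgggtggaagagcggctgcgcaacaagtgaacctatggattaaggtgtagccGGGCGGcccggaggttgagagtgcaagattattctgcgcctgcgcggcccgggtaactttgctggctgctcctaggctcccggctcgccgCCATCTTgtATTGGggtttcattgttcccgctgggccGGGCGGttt
TIAL1, chr10:119596915-119597214, minus strand: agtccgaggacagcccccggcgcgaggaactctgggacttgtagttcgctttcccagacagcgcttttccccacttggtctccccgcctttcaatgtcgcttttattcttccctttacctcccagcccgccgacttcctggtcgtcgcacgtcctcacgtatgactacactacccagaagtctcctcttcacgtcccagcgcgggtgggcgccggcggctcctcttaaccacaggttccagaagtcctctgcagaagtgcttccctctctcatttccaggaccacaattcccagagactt
MATR3 upstream start, chr5:139273851-139274150, plus strand: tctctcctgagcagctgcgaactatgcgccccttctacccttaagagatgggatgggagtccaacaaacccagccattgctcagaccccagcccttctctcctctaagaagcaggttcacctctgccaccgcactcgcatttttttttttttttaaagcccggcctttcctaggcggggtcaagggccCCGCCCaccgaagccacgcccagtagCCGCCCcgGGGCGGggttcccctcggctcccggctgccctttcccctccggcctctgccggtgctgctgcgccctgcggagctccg
MATR3 downstream start, chr5:139293490-139293789, plus strand: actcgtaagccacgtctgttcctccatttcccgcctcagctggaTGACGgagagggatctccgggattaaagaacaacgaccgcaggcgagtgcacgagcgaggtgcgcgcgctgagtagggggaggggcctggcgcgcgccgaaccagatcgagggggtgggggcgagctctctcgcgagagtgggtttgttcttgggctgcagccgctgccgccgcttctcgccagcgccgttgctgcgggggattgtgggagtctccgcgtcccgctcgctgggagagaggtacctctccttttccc
EWSR1, chr22:29268018-29268317, plus strand: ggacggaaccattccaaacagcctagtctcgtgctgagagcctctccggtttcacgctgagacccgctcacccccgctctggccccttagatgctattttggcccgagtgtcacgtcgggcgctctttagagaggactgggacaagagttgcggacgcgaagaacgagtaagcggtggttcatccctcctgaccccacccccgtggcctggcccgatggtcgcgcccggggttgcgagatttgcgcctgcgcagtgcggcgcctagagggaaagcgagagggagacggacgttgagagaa
In the table of 35116 such windows, 44.95% held a GC box, 34.6% a CCAAT box, 24.6% the response element part, 11.5% a TATA box, 10.3% the ETS core, 7.26% the E-box and 5.84% the YY1 core. The upstream window of TIA1 held 1 GC box and 1 TATA box match. It overlaps a transfer RNA gene, TRG-CCC2-1 (chromosome 2, 70248991 to 70249061), that lies 198 bases from the TIA1 gene model. The GC box match of this window lies within the transfer RNA gene. The downstream window of TIA1 held 2 GC boxes, 1 CCAAT box and 1 YY1 core, and both TIA1 windows share bases because the starts are close. None of the 7 motifs was found in the TIAL1 or EWSR1 window. These windows and those of MATR3 also overlap other annotated genes. MATR3 and the noncoding RNA gene SNHG4 begin at the same base (chromosome 5, 139274101), which lies in the upstream MATR3 window. Both MATR3 windows overlap the long noncoding RNA gene LOC124901081. The EWSR1 window overlaps RHBDD3, and the TIAL1 window overlaps the long noncoding RNA gene LOC105378512. A match is a description of the letters and not a test of a factor. Windows were found for 7 of the 9 members, which left out ATXN2 and TAF15.

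In untransfected cells, levels per kilobase of the GENCODE canonical transcript set the members apart. The order depends on the length of that 1 transcript, and the estimated counts were already length-scaled. G3BP1 stood at 344 CPM and G3BP2 at 297 CPM in UT cells, with canonical transcripts of 10227 and 4321 bases. MATR3 stood highest, at 96.7 ± 2.54 CPM per kb (SD, n = 3), followed by TAF15 at 83.9 ± 9.78 and EWSR1 at 78.8 ± 3.25 CPM per kb. G3BP2 stood at 68.7 ± 1.59, TARDBP at 40.8 ± 1.34 and G3BP1 at 33.7 ± 0.619 CPM per kb. TIAL1 (27.5 ± 2.18 CPM per kb), ATXN2 (21.0 ± 1.51) and TIA1 (6.35 ± 0.751) formed the low end, so TIA1 was the least abundant member and TIAL1 the more abundant of the pair. The means of TAF15 and EWSR1 lay within 1 SD of TAF15. Across the 18 groups, TIA1 also varied the most. The SD of its group means was 0.29 on the log2 scale, higher than that of 95.1% of the 10168 genes with a mean of at least 10 CPM, whereas G3BP1 had an SD of 0.08, higher than that of 5.81% of them.

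TIA1 (Entrez 7072, chromosome 2, 70209444 to 70248793), which encodes a stress granule nucleator that also regulates splicing and translation, was the member with the most calls. In UT cells its 3 libraries read 32.9, 29.4 and 25.9 CPM, and in WT_NTG cells 27.6, 27.2 and 27.4 CPM. With WT_S13 they read 59.5, 62.5 and 52.3 CPM, far above both. TIA1 was 2.12-fold higher in WT_S13 than in WT_NTG (log2 1.08 ± 0.12, adjusted p = 1.6e-08). The libraries of the groups did not overlap, which held for 39.2% of all genes. WT_S13 held the highest and WT_NTG the lowest group mean of all 18 groups, at 58.1 ± 5.21 and 27.4 ± 0.203 CPM.

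**Figure D1:**
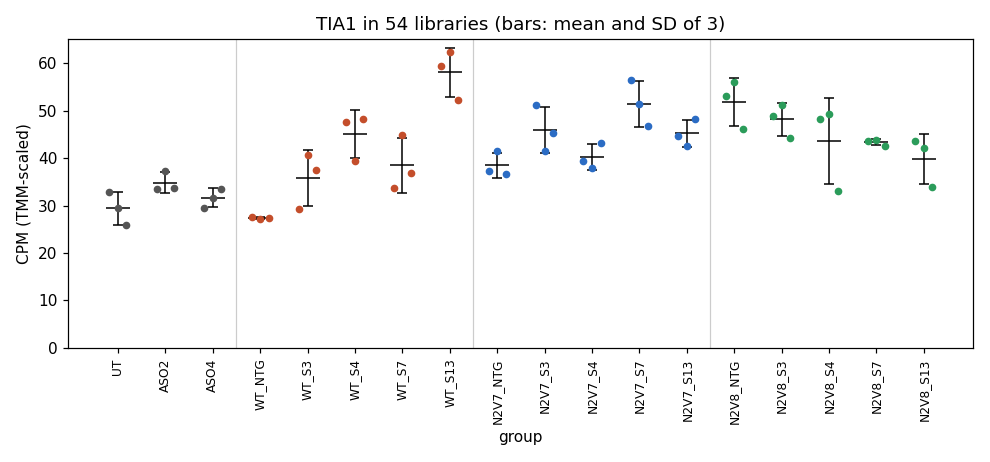
Level of TIA1 (vertical axis, CPM after TMM scaling) for each of the 18 groups along the horizontal axis. Each point is 1 library, coloured by effector, and bars give the mean and SD of 3. The WT_S13 libraries lie between 52.3 and 62.5 CPM and the WT_NTG libraries between 27.2 and 27.6 CPM.

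The 3 additional guides gave the same direction with WT RfxCas13d, each measured against the same WT_NTG libraries. WT_S4 libraries read 47.7, 39.3 and 48.3 CPM (log2 0.72 ± 0.12, adjusted p = 2.84e-05). WT_S7 libraries read 33.7, 44.97 and 37.0 CPM (log2 0.49 ± 0.13, adjusted p = 0.00448), and WT_S3 libraries read 29.3, 40.6 and 37.5 CPM (log2 0.39 ± 0.13, adjusted p = 0.0275). None of these libraries reached down to the WT_NTG range. The WT_S3 call was lost without any 1 of the WT_NTG libraries or without WT_S3 library 2 or 3, with values from 0.29 to 0.39, and WT_S7 lost its call without its library 2, where the log2 fold change was 0.37. With p-values adjusted within each comparison, the adjusted p of WT_S3 was 0.101.

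With the high-fidelity variants the TIA1 level differed already with the non-targeting guide. N2V8_NTG libraries read 53.2, 56.1 and 46.1 CPM, all above the UT range, a 1.76-fold difference (log2 0.81 ± 0.12, adjusted p = 1.45e-06). N2V7_NTG libraries read 37.2, 41.4 and 36.7 CPM (log2 0.38 ± 0.13 against UT, adjusted p = 0.0185), and this call was lost without UT library 2 or 3 or N2V7_NTG library 2. WT_NTG was not called against UT (log2 −0.11, 95% interval −0.37 to 0.16, adjusted p = 0.595). In bulk RNA, a change in the number of cells that express a gene and a change in RNA per cell cannot be told apart.

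Against this N2V8_NTG level, TIA1 was lower with S13. N2V8_S13 libraries read 43.6, 42.2 and 33.9 CPM, all below the N2V8_NTG libraries, and TIA1 fell by 0.37 on the log2 scale (SE 0.12, adjusted p = 0.0239). That call was lost without N2V8_NTG library 1 or 2 or N2V8_S13 library 3, where the log2 fold change reached −0.27, and with p-values adjusted within each comparison (adjusted p = 0.0563). N2V7_S13 libraries read 44.7, 42.7 and 48.2 CPM, a difference from N2V7_NTG of 0.24 (95% interval −0.01 to 0.48, adjusted p = 0.18). N2V7_S7 libraries, at 56.4, 51.3 and 46.8 CPM, lay above those of N2V7_NTG (log2 0.42 ± 0.12, adjusted p = 0.00974), and without N2V7_S7 library 1 the log2 fold change was 0.35 and the call was lost. TIA1 was not called for N2V7_S3, N2V7_S4, N2V8_S3, N2V8_S4 or N2V8_S7, with log2 differences from −0.26 to 0.26.

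Tested directly, the effect of S13 on TIA1 differed between effectors. It was lower in N2V8 than in WT by 1.46 ± 0.17 on the log2 scale (adjusted p = 5.64e-08), lower in N2V7 than in WT by 0.85 ± 0.17 (adjusted p = 0.000329), and lower in N2V8 than in N2V7 by 0.61 ± 0.17 (adjusted p = 0.00804). These contrasts share the NTG libraries with the effects above, so the difference of N2V8 and WT holds both the low WT_NTG and the high N2V8_NTG level, and each of the other two holds 1 of them. The group means side by side were 27.4, 38.5 and 51.8 CPM for NTG and 58.1, 45.2 and 39.9 CPM for S13, in the order WT, N2V7 and N2V8.

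Genes whose group means were most like those of TIA1, over the 18 groups on the log2 scale, were TSPYL4 (Pearson r = 0.906), ZNF530 (0.904), GADD45G (0.902), ZNF594 (0.894) and SNHG30 (0.890). The points share libraries and scaling, and the values are a description. TIAL1, by comparison, had r = 0.61 with TIA1.

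TIAL1 (Entrez 7073, chromosome 10, 119573465 to 119596964) encodes TIAR, which shares RNA-recognition motifs and targets with TIA1. It was not called in any of the 17 comparisons between groups. Its largest difference was with N2V8_NTG, at 117, 137 and 124 CPM, against UT at 114, 105 and 97.3 CPM (log2 0.26 ± 0.06, adjusted p = 0.000304), which is below the fold threshold. These libraries did not overlap, which held for 51.2% of all genes. WT_S13 differed from WT_NTG by 0.19 (95% interval 0.07 to 0.30), a 1.14-fold difference beside the 2.12-fold difference of TIA1. One difference between effectors was called, with the S7 effect lower in N2V8 than in WT by 0.35 ± 0.08 (adjusted p = 0.00106), and it was lost without WT_NTG library 1, N2V8_NTG library 2 or WT_S7 library 2, and with no filter on low counts.

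The S13 comparisons as a whole are read against all genes. With WT, 1 of 9 members was called, TIA1, where 10.8% of all genes were. With N2V7 the 1 called member was TAF15, beside 11.4% of all genes, and with N2V8 it was TIA1, beside 2.44%. The median log2 difference of the members was 0.19 in WT, −0.12 in N2V7 and −0.17 in N2V8, and that of all genes was within 0.02 of 0 each time. For the differences between effectors, 3 members were called for N2V7 minus WT (14.9% of all genes), 4 for N2V8 minus WT (18.3%) and 2 for N2V8 minus N2V7 (14.2%).

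**Figure D2:**
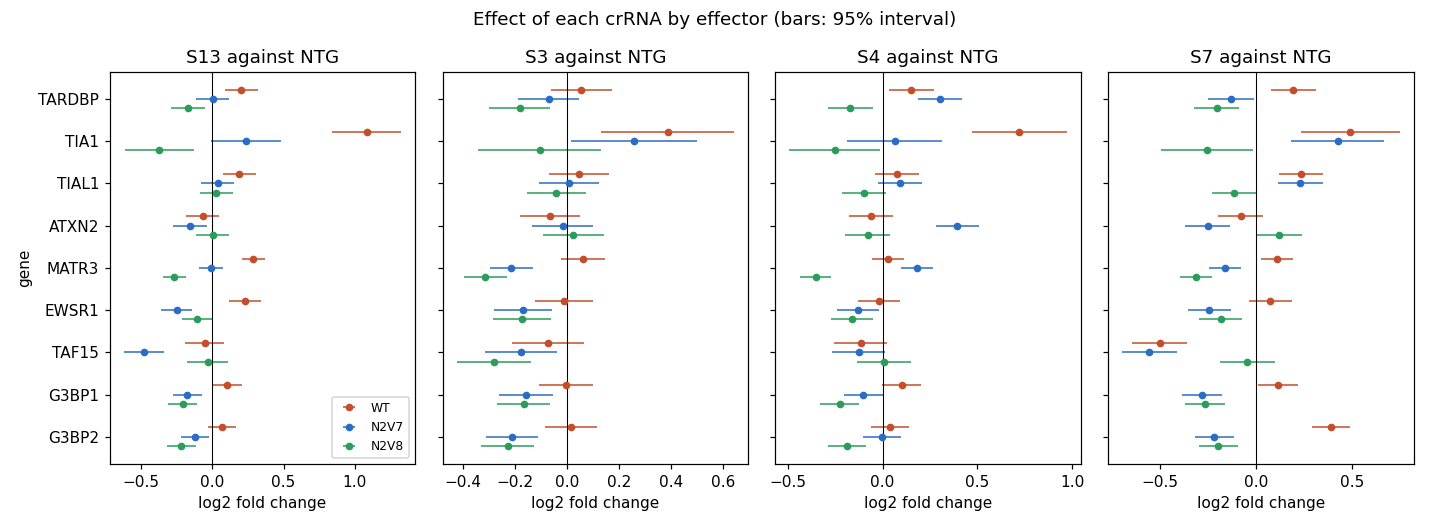
Log2 fold change against NTG of the same effector (horizontal axis) for the 9 genes (vertical axis), 1 panel per crRNA. Points are estimates, coloured by effector, and bars are 95% intervals. The horizontal scale differs between panels. TIA1 in WT_S13 lies at 1.08 and TIA1 in N2V8_S13 at −0.37.

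TAF15 and EWSR1 are related nuclear proteins that bind RNA and take part in transcription and splicing. TAF15 (Entrez 8148, chromosome 17, 35809484 to 35847242) read 248, 238 and 218 CPM in N2V7_NTG and 173, 159.8 and 171 CPM in N2V7_S13. The groups did not overlap, which held for 39% of all genes, and TAF15 fell 1.40-fold (log2 −0.48 ± 0.07, adjusted p = 1.47e-06). WT_S13 libraries read 203, 215 and 199.6 CPM and overlapped WT_NTG at 213, 208 and 221 CPM (log2 −0.06, 95% interval −0.19 to 0.08). The S13 effect in N2V7 was lower than in WT by 0.43 ± 0.10 (adjusted p = 0.00123) and that in N2V8 was higher than in N2V7 by 0.45 ± 0.10 (adjusted p = 0.000833). Both calls were lost without the factor of unwanted variation, with adjusted p of 0.132 and 0.115.

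TAF15 also fell with S7 in WT and N2V7. WT_S7 libraries read 149.7, 136 and 167 CPM, all below WT_NTG, a 1.42-fold fall (log2 −0.50 ± 0.07, adjusted p = 4.23e-07). N2V7_S7 libraries read 149, 166 and 164 CPM, a 1.47-fold fall (log2 −0.55 ± 0.07, adjusted p = 4.7e-08). N2V8_S7 libraries, at 188, 178 and 165 CPM, overlapped N2V8_NTG at 186, 188 and 174 CPM, and the S7 effect was higher in N2V8 than in WT by 0.46 ± 0.10 (adjusted p = 0.000597), a call lost without the factor of unwanted variation (adjusted p = 0.11). In this fit TAF15 was called lower in 3 of the 12 comparisons of a guide with NTG, whereas TIA1 and MATR3 were each called lower in 1 and the other members in 0. N2V8_S3 had the lowest TAF15 mean of all groups, 150.1 ± 6.10 CPM, 1.22-fold below N2V8_NTG and not called. N2V7_S4 libraries read 157, 342 and 185 CPM (log2 −0.13, adjusted p = 0.239), and without library 2 the difference was −0.46 and called. The S4 effect in N2V7 differed from that in WT by −0.01, and without library 2 by −0.35 and was called.

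EWSR1 (Entrez 2130, chromosome 22, 29268268 to 29300521) did not pass the fold threshold with any guide against NTG. Its group mean was 245 ± 12.9 CPM in WT_S13 and 209 ± 4.27 CPM in WT_NTG (log2 0.23 ± 0.06, adjusted p = 0.00195), and 215 ± 15.3 CPM in N2V7_S13 against 256 ± 7.84 CPM in N2V7_NTG (log2 −0.25 ± 0.06, adjusted p = 0.000617). Each of these lies below the fold threshold, whereas the S13 effect differed between N2V7 and WT by −0.48 ± 0.08 (adjusted p = 6.91e-06) and between N2V8 and WT by −0.33 ± 0.08 (adjusted p = 0.00129). The latter was lost in 5 of 12 fits that left out 1 library, namely WT_NTG library 3, N2V8_NTG library 2, WT_S13 library 2 or 3, or N2V8_S13 library 3, and with no filter on low counts.

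The non-targeting guide of each effector was compared with UT, with the 3 UT libraries shared by all 3 comparisons. UT cells were not transfected, so effector, guide and transfection itself cannot be told apart within any 1 of these comparisons. The 3 NTG groups share the guide and plasmid transfection and differ in the effector. In the order WT, N2V7 and N2V8, their means were 27.4, 38.5 and 51.8 CPM for TIA1 and 516, 658 and 721 CPM for MATR3. They were 209, 256 and 242 CPM for EWSR1 and 214, 235 and 183 CPM for TAF15. The variants were not tested directly against WT_NTG. In WT_NTG 0 members were called by edgeR and by DESeq2, 3 had an unadjusted p under 0.05 (beside 3320 of all 15378 genes), and 5.09% of all genes were called. In N2V7_NTG, 4 of 9 members were called, beside 20.8% of all genes, and in N2V8_NTG 3 of 9, beside 29.9%. All of these calls were rises, and all 9 members had a higher level in N2V7_NTG than in UT, beside 7753 of all 15378 genes. The smallest log2 difference among the members there was 0.01. The median log2 difference of the members was 0.20 in N2V7_NTG and 0.19 in N2V8_NTG.

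MATR3 (Entrez 9782, chromosome 5, 139274101 to 139331677), a nuclear matrix protein that binds RNA and DNA, held the smallest adjusted p of these. Its libraries read 502, 491 and 477 CPM in UT and 729, 709 and 726 CPM in N2V8_NTG, a 1.47-fold rise (log2 0.56 ± 0.04, adjusted p = 1.83e-16). N2V7_NTG libraries read 648, 697 and 628 CPM (log2 0.42 ± 0.04, adjusted p = 2.44e-12), and neither group overlapped UT. Of all genes, 44.3% did not overlap UT in N2V7_NTG and 51.2% in N2V8_NTG. WT_NTG libraries, at 524, 523 and 501 CPM, overlapped UT at its upper end and MATR3 was not called (log2 0.07, 95% interval −0.01 to 0.16).

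EWSR1 rose in both variants too. It read 249, 265 and 256 CPM in N2V7_NTG and 229, 259 and 238 CPM in N2V8_NTG, against 184, 198 and 185 CPM in UT. The log2 fold changes were 0.44 ± 0.06 (adjusted p = 5.12e-09) and 0.36 ± 0.06 (adjusted p = 7.59e-07), and without N2V8_NTG library 2 the latter was 0.30 and not called. RHBDD3, a gene whose annotated span lies 105 bases from that of EWSR1, rose in the same groups, by 0.74 ± 0.13 in N2V7_NTG (adjusted p = 3.92e-06) and 0.61 ± 0.13 in N2V8_NTG (adjusted p = 0.000148). TAF15 rose in N2V7_NTG (log2 0.37 ± 0.07, adjusted p = 3.22e-05). Without UT library 1 that call was lost, at log2 0.28. TAF15 was close to UT in N2V8_NTG (log2 0.01, 95% interval −0.13 to 0.15).

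Among the other genes of the list of RNA-binding proteins linked to ALS, 3 of 13 rose in N2V7_NTG, where 10.9% of all genes rose and the list's median log2 difference was 0.13. In N2V8_NTG 5 of them rose and 1 fell, where 15.3% of all genes rose and 14.7% fell, and the median was 0.30. HNRNPA2B1, an hnRNP, rose in N2V8_NTG (log2 0.64 ± 0.06, adjusted p = 6.42e-13). Of 38 further stress granule genes, 8 rose and 3 fell in N2V7_NTG (median 0.08), where 10.9% of all genes rose and 9.95% fell. In N2V8_NTG 5 rose and 6 fell (median 0.02), about the 15.3% and 14.7% of all genes. RBM3, a cold-inducible RNA-binding protein, rose in N2V8_NTG (log2 1.24 ± 0.11, adjusted p = 3.79e-11), and CIRBP, a cold-inducible protein of the same family, fell (log2 −0.65 ± 0.07, adjusted p = 9.15e-11).

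**Figure D3:**
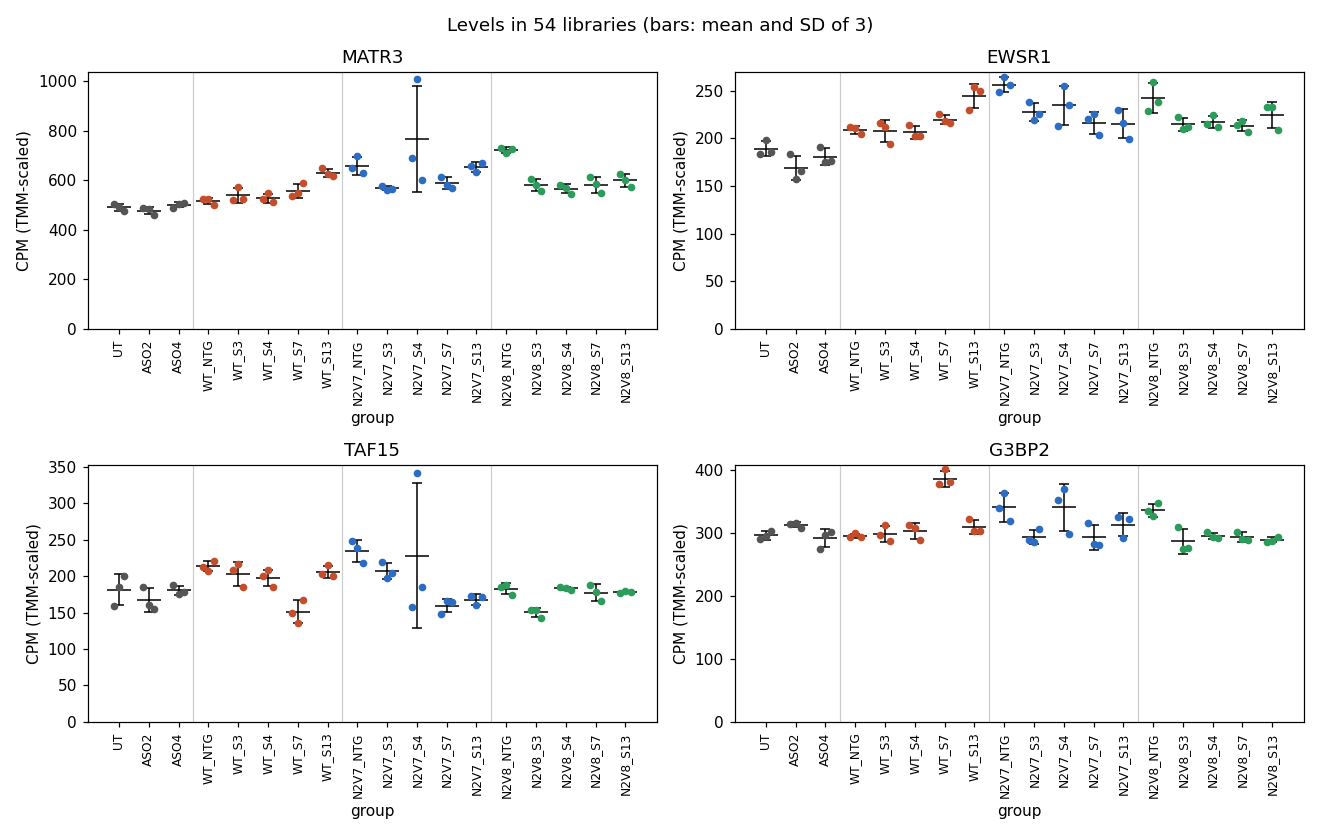
Levels of MATR3, EWSR1, TAF15 and G3BP2 (vertical axes, CPM after TMM scaling) for each of the 18 groups along the horizontal axes. Each point is 1 library and bars give the mean and SD of 3. MATR3 lies between 709 and 729 CPM in N2V8_NTG and between 477 and 502 CPM in UT, and library 2 of N2V7_S4 reaches 1010.0 CPM.

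Against N2V8_NTG, MATR3 was lower with all 4 guides, and S4 alone passed the fold threshold. N2V8_S4 libraries read 581, 569.8 and 545 CPM, against 729, 709 and 726 CPM in N2V8_NTG (log2 −0.35 ± 0.04, adjusted p = 2.21e-09). The values for S3 (log2 −0.317, adjusted p = 3.35e-08) and S7 (log2 −0.31, adjusted p = 4.65e-08) lay just below the threshold. The difference with S13 was smaller (log2 −0.27, adjusted p = 2.5e-06). In WT, MATR3 stood at 630.1 ± 15.8 CPM with S13 and 516 ± 12.9 CPM with NTG (log2 0.29 ± 0.04, adjusted p = 6.07e-07), a 1.22-fold difference that was not called. The S13 effect was lower in N2V8 than in WT by 0.56 ± 0.06 (adjusted p = 4.68e-10), and the S3, S4 and S7 effects by 0.38, 0.38 and 0.42, each ± 0.06, with adjusted p from 1.46e-07 to 1.48e-06. The NTG libraries are shared among these 4 values. In N2V7_S4, MATR3 differed from N2V7_NTG by 0.18 (adjusted p = 0.000883), below the fold threshold, and without library 2 by −0.03.

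MATR3 and EWSR1 had the highest correlation of group means among the 36 pairs of members (Pearson r = 0.825 over 18 groups, 0.855 without N2V7_S4). SNHG4, a long noncoding RNA gene that lies within the MATR3 gene model on chromosome 5 (139274101 to 139284900), had between 2.38 and 7.02 CPM. It rose with N2V8_NTG against UT (log2 0.56 ± 0.21, adjusted p = 0.0334), WT_S4 against WT_NTG (log2 0.82 ± 0.21) and WT_S7 against WT_NTG (log2 0.88 ± 0.21). Reads assigned to overlapping genes can be split by the counting, so small differences in MATR3 or SNHG4 are uncertain.

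G3BP1 and G3BP2, paralogous scaffolds that bind RNA and drive the assembly of stress granules, were compared next. G3BP2 (Entrez 9908, chromosome 4, 75642786 to 75724437) read 294, 299.7 and 294 CPM in WT_NTG and 379, 402 and 381 CPM in WT_S7, with no overlap (log2 0.39 ± 0.05, adjusted p = 2.31e-08). The libraries of these groups did not overlap for 44% of all genes. Its group mean in WT_S7 was the highest of all 18 and did not overlap the next group. G3BP1 (Entrez 10146, chromosome 5, 151771954 to 151812785) read 356, 326 and 322 CPM in WT_NTG and 351, 371 and 364 CPM in WT_S7, which overlapped (log2 0.11, 95% interval 0.01 to 0.21).

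Both differed between effectors in the S7 effect. For G3BP2 it was lower than in WT by 0.60 ± 0.07 in N2V7 (adjusted p = 1.74e-09) and by 0.58 ± 0.07 in N2V8 (adjusted p = 4.49e-09). For G3BP1 it was lower by 0.39 ± 0.07 in N2V7 (adjusted p = 3.46e-05) and by 0.38 ± 0.07 in N2V8 (adjusted p = 7.47e-05). In N2V7_S7 and N2V8_S7 both genes had lower levels than in their NTG libraries, by 0.20 to 0.28 on the log2 scale, below the fold threshold.

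TARDBP (Entrez 23435, chromosome 1, 11012654 to 11030528), which encodes TDP-43, a regulator of splicing that represses cryptic exons, was not called in any of the 17 comparisons between groups. Its WT_NTG libraries read 158, 146 and 160.2 CPM and its WT_S13 libraries 184, 174 and 177 CPM, which did not overlap (log2 0.20 ± 0.06, 95% interval 0.09 to 0.32, a 1.15-fold difference). Of all genes, 39.2% did not overlap there. N2V8_NTG libraries read 176, 192 and 191 CPM and N2V8_S13 libraries 171, 168 and 157 CPM, which did not overlap either (log2 −0.17, 95% interval −0.29 to −0.05). In that comparison 23.8% of all genes did not overlap. The S13 effect was lower in N2V8 than in WT by 0.37 ± 0.08 (adjusted p = 0.000656), a call lost without the factor of unwanted variation (adjusted p = 0.0672). Outside N2V7_S4, all group means of TARDBP lay between 154 and 186 CPM.

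The S4 and S7 effects on TARDBP were also lower in N2V8 than in WT, by 0.32 ± 0.08 (adjusted p = 0.00296) and 0.40 ± 0.08 (adjusted p = 0.000233), and the S7 effect was lower in N2V7 than in WT by 0.33 ± 0.08 (adjusted p = 0.0028). The value for S4 and the one for N2V7 lie close to the fold threshold, and 5 of 9 alternative settings ended each call. The S4 call was lost without WT_NTG library 2, N2V8_NTG library 2 or 3, WT_S4 library 2 or 3, or N2V8_S4 library 1. The N2V7 call was lost without WT_NTG library 2, N2V7_NTG library 1 or 2, WT_S7 library 2 or N2V7_S7 library 3, with values as small as −0.23. In N2V7_S4 the TARDBP libraries read 203, 293 and 165 CPM (log2 0.30 against N2V7_NTG, not called), and without library 2 the difference was 0.09. MASP2, whose gene model overlaps that of TARDBP, did not pass the filter on low counts. NKRF had the group means most like those of TARDBP (Pearson r = 0.872 over 18 groups, 0.890 without N2V7_S4). SSX2IP, CEP55 and ENAH, also among the 5 most alike, had r from 0.835 to 0.844, and from 0.590 to 0.608 without N2V7_S4.

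ATXN2 (Entrez 6311, chromosome 12, 111452214 to 111599673), whose protein binds the poly(A)-binding protein and carries a polyglutamine tract that is expanded in spinocerebellar ataxia, was called only where N2V7_S4 took part. Its N2V7_S4 libraries read 101, 234 and 76.2 CPM, and its N2V7_NTG libraries 95.9, 90.6 and 90.4 CPM, so the groups overlapped. The fitted difference was 0.39 ± 0.06 (adjusted p = 4.19e-07), and without library 2 of N2V7_S4 it was −0.054 and not called. It was not called either when the compared groups were fitted alone (adjusted p = 0.411). The S4 effect was higher in N2V7 than in WT by 0.45 ± 0.08 (adjusted p = 2.3e-05), and without that library by 0.0054 and not called. In the other 17 groups its means lay between 77.5 and 92.3 CPM. No other call of a comparison between groups changed sign when 1 library was left out.

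Over the 9 comparisons of S3, S4 and S7 with NTG, the calls were few. WT_S3 had 1 of 9 members called (2.74% of all genes), WT_S4 1 (2.67%) and WT_S7 3 (19.2%). N2V7_S3 had 0 (4.15%), N2V7_S4 1 (24.2%) and N2V7_S7 2 (14.3%). N2V8_S3 had 0 (3.07%), N2V8_S4 1 (6.15%) and N2V8_S7 0 (7.33%). At an unadjusted p under 0.05, edgeR gave 6 members in N2V7_S3, 6 in N2V8_S3 and 7 in N2V8_S7, beside 3332, 3092 and 4561 of all 15378 genes, and DESeq2 called 0 in each of the 3. The direction was lower than NTG for 8 of 9 members in N2V8_S3, N2V8_S4 and N2V8_S7 alike, with the NTG libraries shared. Of all 15378 genes, 7793, 7791 and 7611 were lower.

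**Figure D4:**
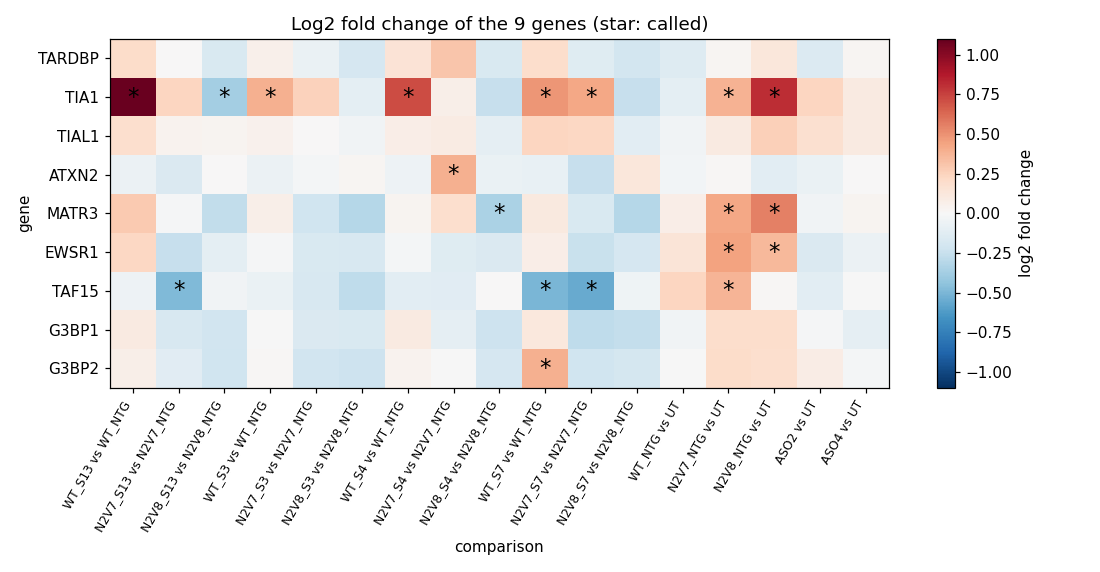
Log2 fold change (colour, blue lower and red higher) of the 9 genes (rows) in the 17 comparisons between groups (columns), with a star where a gene was called. TIA1 has 8 stars, and TIAL1, TARDBP and G3BP1 have 0.

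For the differences between effectors in these effects, the counts of members called were 0 for S3 in N2V7 minus WT (6.58% of all genes, with 4 members and 3133 of all genes at an unadjusted p under 0.05 in edgeR and 0 called by DESeq2) and 2 in N2V8 minus WT (5.85%). For S4 they were 2 (19.9%) and 4 (10.1%), and for S7 they were 3 (25.8%) and 7 (29.5%). TIA1 was lower in N2V8 than in WT in the S3 effect by 0.49 ± 0.17 (adjusted p = 0.0363), a call lost in 8 of 12 fits that left out 1 library (any of WT_NTG, N2V8_NTG library 1 or 2, WT_S3 library 2 or 3, or N2V8_S3 library 3) and with p-values adjusted within each comparison (adjusted p = 0.0868). It was lower in the S4 effect by 0.97 ± 0.17 (adjusted p = 3.86e-05) and in the S7 effect by 0.74 ± 0.17 (adjusted p = 0.00143). The S4 effect on TIA1 was also lower in N2V7 than in WT, by 0.66 ± 0.17 (adjusted p = 0.00508), and by 0.61 without library 2 of N2V7_S4, where TIA1 was still called. G3BP1 was lower in N2V8 than in WT in the S4 effect by 0.33 ± 0.07 (adjusted p = 0.000517), a call lost in 6 of 12 such fits, those without WT_NTG library 2 or 3, N2V8_NTG library 1, WT_S4 library 1 or 2, or N2V8_S4 library 1, and in 4 of 9 alternative settings.

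The antisense oligonucleotides left all 9 members uncalled in edgeR's quasi-likelihood test. ASO2 had 0 of 9 called, beside 16.1% of all genes, and ASO4 0 of 9, beside 2.13%. The fitted differences ran from −0.16 to 0.24 with ASO2 and from −0.10 to 0.10 with ASO4. EWSR1 read 183, 158 and 166 CPM with ASO2, all below the UT libraries (log2 −0.16, 95% interval −0.28 to −0.05, adjusted p = 0.0366). TIA1 read 33.5, 37.3 and 33.7 CPM with ASO2, all above the UT libraries (log2 0.24, 95% interval −0.02 to 0.49). Libraries of ASO2 and UT did not overlap for 40.6% of all genes. UT cells were not transfected, so an oligonucleotide and its delivery cannot be told apart in these values. At an unadjusted p under 0.05, ASO2 had 3 members and ASO4 had 0, beside 6311 and 2354 of all 15378 genes, and DESeq2 called 0 in both.

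Lists of related genes were counted in the S13 comparisons. Of the 13 other RNA-binding genes linked to ALS, 3 rose and 0 fell in WT_S13, and 0 rose and 1 fell in N2V7_S13. In N2V8_S13 0 of them were called, where 2.44% of all genes were. The medians of this list were 0.19 in WT_S13, 0.09 in N2V7_S13 and −0.12 in N2V8_S13. Of 38 other stress granule genes, 12 fell and 0 rose in N2V7_S13, 0 changed in WT_S13, and 1 fell in N2V8_S13, with list medians of −0.08, −0.02 and −0.05 in that order. Of all genes, 7.78% fell and 3.66% rose in N2V7_S13, 4.24% fell and 6.53% rose in WT_S13, and 0.715% fell in N2V8_S13. PRRC2C, a large stress granule protein, fell by 0.78 ± 0.13 on the log2 scale (adjusted p = 2.66e-05) and EIF4G1, the scaffold of the cap-binding complex, by 0.58 ± 0.05 (adjusted p = 9.14e-12). Of 24 processing body genes, which encode mRNA decay factors, 6 fell and 1 rose in N2V7_S13 (median −0.14), with TNRC6A, a partner of Argonaute, lower by 0.59 ± 0.08 (adjusted p = 7.17e-08). Of 34 nuclear transport genes 6 fell there (median −0.09), and TPR, a nuclear pore protein, was lower by 0.49 ± 0.09 (adjusted p = 6.89e-05). In N2V8_S13, 0 of the processing body genes and 0 of the nuclear transport genes were called. Of 27 further ALS and FTD genes, 2 rose in WT_S13, TUBA4A (log2 0.43 ± 0.11) and PFN1 (log2 0.35 ± 0.06), and 1 fell in N2V7_S13.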

How the data were processed

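Poly(A) RNA of 54 HEK293T cultures was sequenced, in 18 groups of 3 replicates taken from the labels. The authors quantified reads with Salmon 1.5.2 on spliced transcripts with the GRCh38 genome as decoy and deposited, per the labels and the study's methods, gene-level estimated counts (length-scaled by tximport), which need not be whole. A column of another kind, also deposited by the authors, marks with TRUE or FALSE the genes they kept, 15464 in number. It was not used as a filter.

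Here, estimated counts were rounded to whole numbers and filtered by edgeR's filterByExpr, which left 15378 of 38137 genes. Genes left out held 0.0723% of counts. Totals ran from 9546826 to 15099153, and counts at this depth limit the precision of the lowest member, TIA1. Libraries were scaled by TMM. All 54 were fitted in edgeR 4.0.16 (R 4.3.3) by the quasi-likelihood method with a mean for each group and with 1 factor of unwanted variation (RUVr, from the residuals), which took 23.4% of the residual variance. Adjusted p-values are Benjamini-Hochberg values over all genes and all comparisons of a family (S13, its differences between effectors, the additional guides, their differences, NTG, and oligonucleotides). A call needed a fold change over 1.25 and an adjusted p under 0.05. Levels in the text are not adjusted for the factor, whereas fold changes are. The tests are two-sided.

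The alternatives were limma-trend (limma 3.58.1), DESeq2 1.42.0, DESeq2 size factors, no filter on low counts, no factor, a fit of the compared groups alone without the factor, p-values adjusted in each comparison separately, a threshold of 0.01 on the adjusted p, a replicate block and each library left out in turn (with the dispersion trend of the full fit, and quasi-likelihood dispersions estimated anew). The scripts were tested on simulated data. The named genes are all 9 members, annotated genes within 5 kb of them, up to 3 called genes with the largest change per list and family, and the 5 genes most like TIA1 and TARDBP in group means. Some of the genes this rule names are not reported here. The members and lists were chosen with earlier results of these data known. The counts of called members are therefore descriptions. So are the lists of other stress granule, processing body, nuclear transport, ALS-linked RNA-binding, and ALS and FTD genes.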

Additional observations from a re-analysis of the deposited data

Results flagged for a closer look

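The effect of a guide differed between effectors, by the fit's own test of the difference, in 27 combinations of gene and comparison. Values are differences of log2 fold changes, and each rests on NTG libraries that several of them share. Their causes were not tested.

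For TIA1 the S13 effect differed by −0.85 between N2V7 and WT, by −1.46 between N2V8 and WT and by −0.61 between N2V8 and N2V7. Its S3 effect differed by −0.49, its S4 effect by −0.97 and its S7 effect by −0.74 between N2V8 and WT, and its S4 effect by −0.66 between N2V7 and WT. TIAL1 differed in the S7 effect by −0.35 between N2V8 and WT.

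For MATR3 the differences between N2V8 and WT were −0.56 for S13, −0.38 for S3, −0.38 for S4 and −0.42 for S7. For TARDBP they were −0.37 for S13, −0.32 for S4 and −0.40 for S7, and the S7 effect differed by −0.33 between N2V7 and WT. EWSR1 differed in the S13 effect by −0.48 between N2V7 and WT and by −0.33 between N2V8 and WT.

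TAF15 was the member with differences of either sign. Its S13 effect differed by −0.43 between N2V7 and WT and by 0.45 between N2V8 and N2V7, and its S7 effect by 0.46 between N2V8 and WT. G3BP1 differed between N2V8 and WT by −0.33 for S4 and −0.38 for S7, and between N2V7 and WT by −0.39 for S7. G3BP2 differed in the S7 effect by −0.60 between N2V7 and WT and by −0.58 between N2V8 and WT. ATXN2 differed in the S4 effect by 0.45 between N2V7 and WT, which became 0.0054 without library 2 of N2V7_S4.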

How the results depend on the processing

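Of 46 called combinations of member and comparison, 27 kept their call in every planned setting and 19 lost it in at least 1, and 12 uncalled ones gained a call in at least 1. One changed sign: ATXN2 in N2V7_S4, from 0.39 to −0.054 without library 2, over a range of −0.054 to 0.72 with 1 library left out. The cause was not tested. Adjusting within each comparison or asking for an adjusted p under 0.01 left 0 members for N2V8_S13, 0 for WT_S3 and 1 for the S3 difference of N2V8 and WT. Without the factor of unwanted variation, N2V7_S4 had 2 members, and 1 remained for the S4 difference of N2V7 and WT and 1 for the S13 difference of N2V8 and N2V7. Fitting the compared groups alone gave 0 for N2V7_S4, 1 for the S4 difference of N2V7 and WT, and 2 for the S4 difference of N2V8 and WT, which also had 2 under DESeq2, DESeq2 size factors and no filter on low counts. With 1 library left out, the members called ran from 0 to 1 for N2V8_S13, WT_S3, N2V8_S3 and N2V8_S7, from 1 to 3 for N2V7_S4, from 1 to 2 for the S3 difference of N2V8 and WT and from 2 to 4 for the S4 difference of N2V8 and WT.

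Over all genes, N2V7_S4 had 3715 calls, 366 when only the compared groups were fitted and 1703 without its library 2. The S4 difference of N2V7 and WT had 3054, 562 and 1410. Without the factor, calls were 241 against 375 for N2V8_S13, 1441 against 2189 for the S13 difference of N2V8 and N2V7, 618 against 1012 and 526 against 899 for the S3 differences of N2V7 and N2V8 from WT, 1838 against 3054 and 995 against 1548 for the S4 differences, and 212 against 328 for ASO4. Adjustment within comparisons gave 240 for N2V8_S13, 249 against 422 for WT_S3, 237 against 410 for WT_S4, 556 for the S3 difference of N2V8 and WT and 167 for ASO4. An adjusted p under 0.01 lowered 14 counts by over 1.5 times: to 169 for N2V8_S13, 1445 from 2289 and 1396 from 2189 for the S13 differences of N2V7 from WT and of N2V8 from N2V7, 247 for WT_S3, 361 from 638 for N2V7_S3, 230 from 472 for N2V8_S3, 227 for WT_S4, 604 from 946 for N2V8_S4, 734 from 1127 for N2V8_S7, 542 and 450 for the S3 differences of N2V7 and N2V8 from WT, 909 for the S4 difference of N2V8 from WT, 452 from 783 for WT_NTG and 153 for ASO4. Without UT library 2 ASO4 had 190, and without its library 3 N2V8_S13 had 231. Same-numbered libraries did not deviate together (mean r = 0.00112 over 459 pairs), so the replicate numbers were not taken as pairs, and a replicate block left the number of members called the same in each of the 26 comparisons, for example 1 for WT_S13 and 4 for N2V7_NTG. With DESeq2 size factors, all 162 group means of the members moved by less than 1 SD, at most by 0.658%. The depth limits TIA1 most, whose lowest estimated count was 257.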
